A study of Mus musculus with 10 samples.

Results

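Bone morphogenetic proteins (BMPs), growth and differentiation factors (GDFs), transforming growth factor beta (TGF-beta) and activins form one family of secreted signals, and 53 genes of their pathway were taken from the count table by gene name, of 38962 genes in all. The members were 19 ligands, 13 receptors and co-receptors, 8 SMADs, 9 antagonists and modulators and 4 target genes. Each was matched to 1 row of the table.

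RNA was sequenced from femurs of male C57BL/6J mice after the marrow had been flushed out and the bone ground to powder, 1 library per mouse. The young group held 5 mice aged 2 months, bought from the Jackson Laboratory. The aged group held 5 mice aged 22 months, which came from the National Institute of Aging colony at 16 months and then aged in house, so supplier and age cannot be told apart. No mouse carried a transgene or received a treatment, and the comparison asks how bone differs between 2 and 22 months of age. The authors presume that skeletons are still being built up in the younger group, and they place the peak of cortical bone later. A difference between the groups can thus reflect the end of growth as well as ageing, and these were not separated. Libraries held 33447009 to 40395050 counts in young and 31788232 to 45075335 in aged mice, and mice are named by the number in their labels.

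In this family a ligand dimer brings together type I and type II receptors, and the type I receptor then phosphorylates a SMAD protein that enters the nucleus with SMAD4. BMPs act mostly through SMAD1, SMAD5 and SMAD9, and TGF-beta and activins mostly through SMAD2 and SMAD3. BMPs drive bone formation, TGF-beta is stored in bone matrix and released when the matrix is resorbed, and secreted antagonists such as noggin and follistatin hold the ligands back.

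Between young and aged bone 6 members passed the test for a change, and most members did not. The ligand genes Gdf6 and Gdf7 and the type I receptor genes Bmpr1b and Acvrl1 were higher in aged bone, while the secreted glycoprotein gene Fstl1 and the BMP target gene Id3 were lower. Of 52 members with enough counts to test, these 6 (11.5%) had an adjusted p of 0.05 or less (quasi-likelihood test of edgeR, Benjamini-Hochberg). The background over all 22088 genes tested was 7.29% called, with 3.68% higher and 3.61% lower. A further 46 members were not called, which does not show that they were unchanged, and 15 of the 52 had an unadjusted p under 0.05. In simulated counts the same test called 11 of 67 genes changed 1.5-fold and 41 of 67 changed 2-fold. The median change of the members was 0.07 on the log2 scale against 0.01 over all genes tested, with 34 members above 0 and 18 below. Only Gdf7 had every aged mouse above every young mouse, and Fstl1, Bambi and Id3 had every aged mouse below, where 7.8% of all genes tested did not overlap in either direction.

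**Figure D1:**
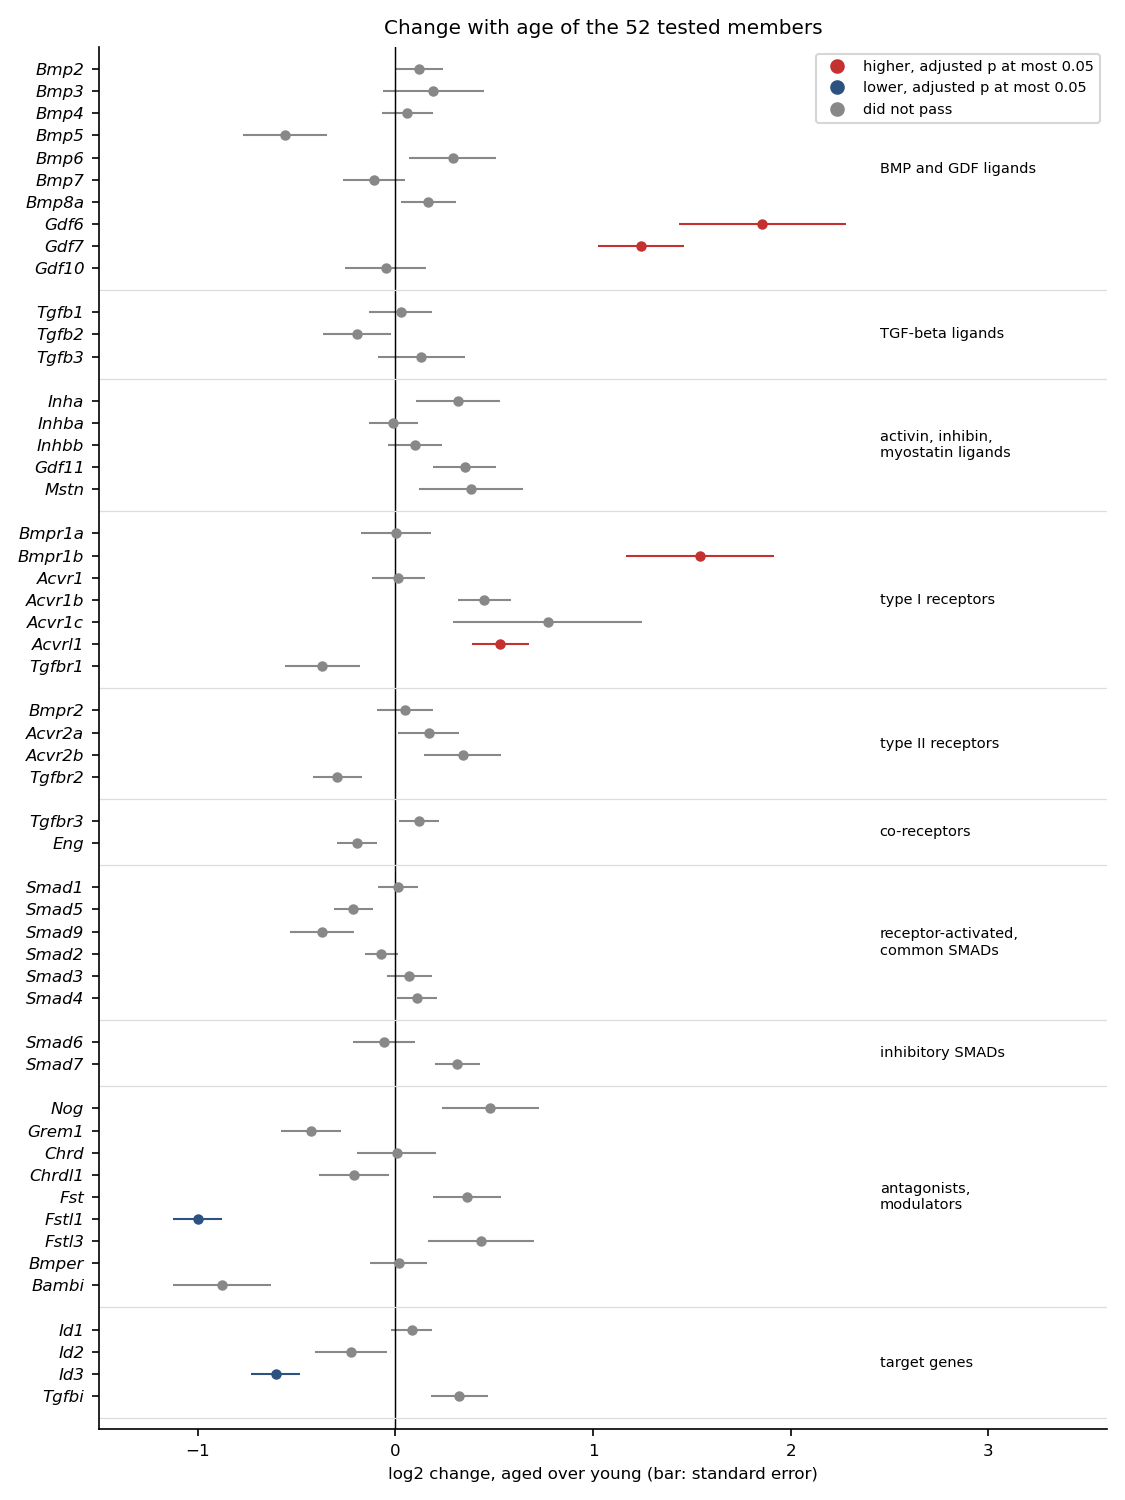
Log2 change from young to aged bone (horizontal axis) with its standard error for the 52 tested members, grouped by role. Red points are the 4 members called higher, blue points the 2 called lower, and grey points the 46 that did not pass; most grey points lie close to 0.

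Levels of different genes can be compared only per length, here as CPM, counts relative to a fixed library size after scaling by the trimmed mean of M values (TMM), per kilobase of exon length. On that scale the target gene Id3 had the highest mean of the members in young bone, 41.7 CPM per kilobase, and 27.4 in aged bone. The ligand gene Tgfb1 was next at 29.9 in young and 30.4 in aged bone, and it was the highest member in aged bone. Fstl1 stood at 21.2 in young and 10.6 in aged bone, and the shared SMAD gene Smad4 at 16.5 and 17.8. The lowest in young bone was Gdf6, at 0.0426 against 0.162 in aged bone, and the lowest in aged bone was Gdf5, at 0.0667 in young and 0.0479 in aged bone, while 2 type I receptor genes were also low in young bone, Bmpr1b at 0.139 and Acvr1c at 0.118. Each level is a mean over 5 mice, and 3 of the 4 members called higher, Gdf6, Gdf7 and Bmpr1b, were below 1 CPM per kilobase in young bone.

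**Figure D2:**
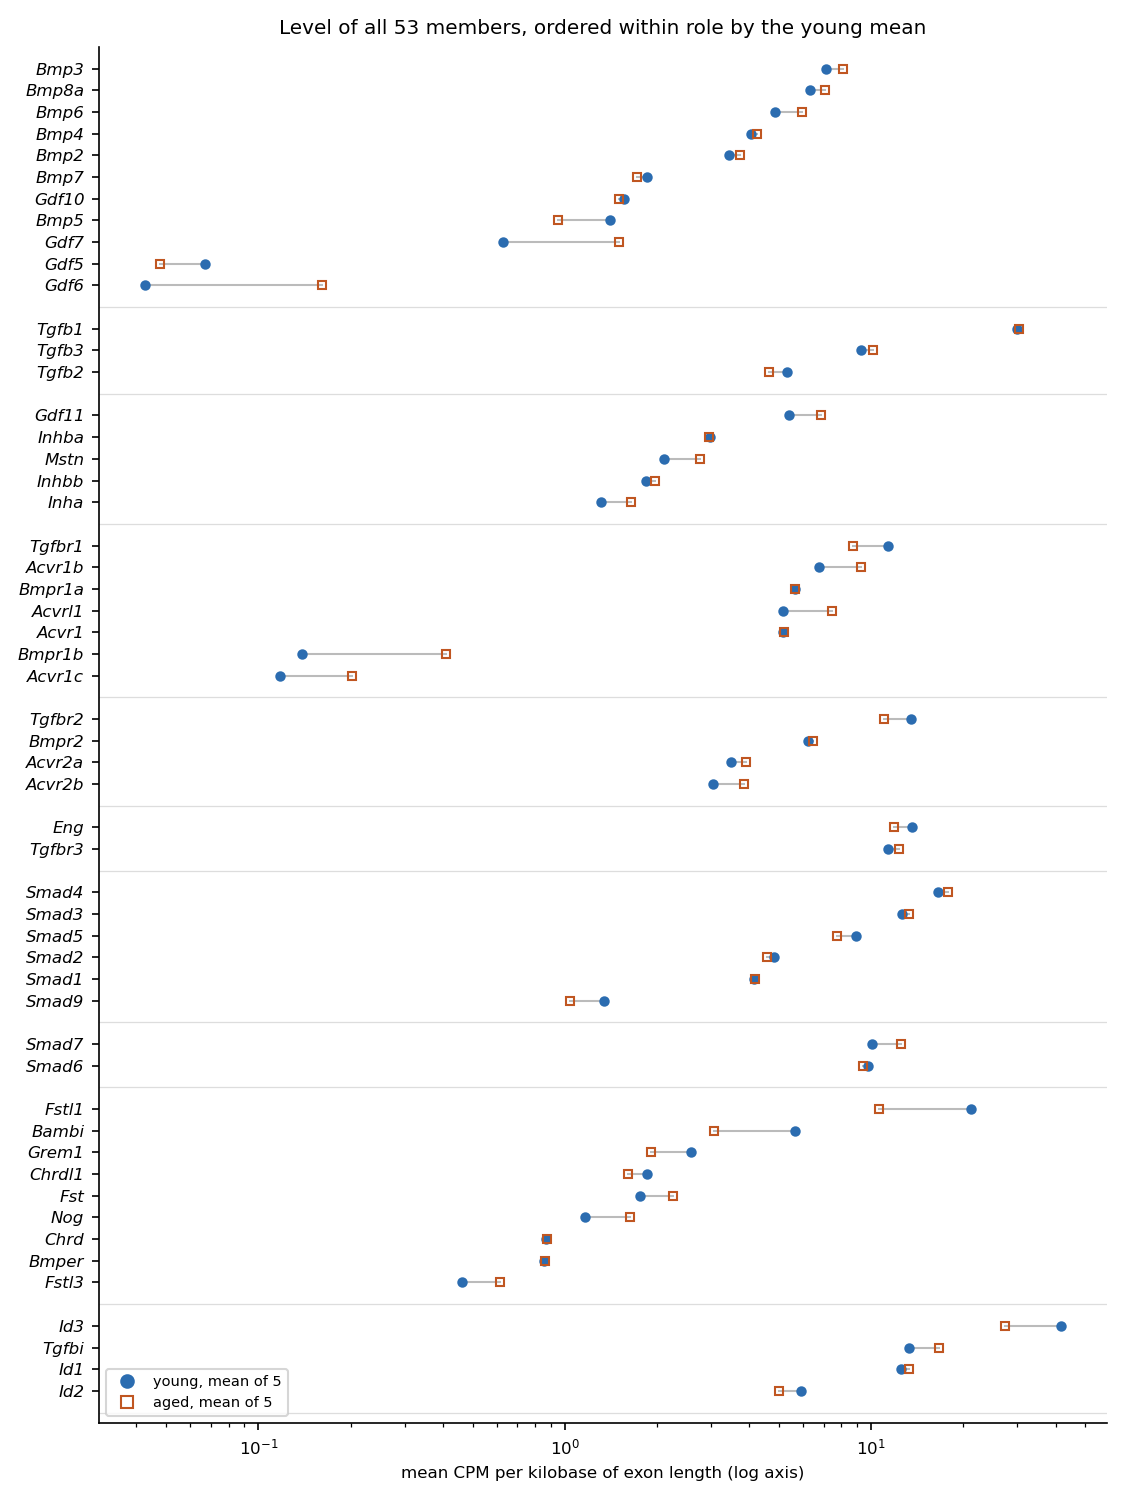
Mean level of all 53 members in CPM per kilobase of exon length, on a log axis, for young (filled circles) and aged (open squares) bone, ordered within each role by the young mean. Gdf6 and Bmpr1b lie far left of most other members of their roles at both ages, and Id3 and Tgfb1 lie furthest right.

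Of the 11 BMP and GDF ligand genes, 2 were higher, 0 were lower, 8 did not pass and Gdf5 had too few counts to test. Gdf7 and Gdf6 encode 2 closely related ligands of the GDF5 subgroup, which is known for joint and tendon development. Gdf7 (ENSMUSG00000037660.5, chr12:8297918-8301954, minus strand, GRCm38) measured 0.77, 0.83, 0.69, 1.0 and 1.18 CPM in young mice 1 to 5 and 1.51, 2.39, 2.58, 1.76 and 2.46 CPM in aged mice 1 to 5. Every aged mouse lay above every young mouse. The mean was 0.895 ± 0.195 CPM in young and 2.14 ± 0.474 CPM in aged bone (SD, n = 5 each), a 2.36-fold rise (log2 change 1.24, SE 0.22, edgeR adjusted p = 0.00484).

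Gdf6 (ENSMUSG00000051279.2, chr4:9844372-9862345, plus strand) was scarce, with 5, 8, 3, 13 and 2 reads in young mice 1 to 5 and 25, 35, 19, 11 and 19 reads in aged mice 1 to 5. After scaling these were 0.128, 0.202, 0.104, 0.271 and 0.0472 CPM in young and 0.699, 0.696, 0.721, 0.258 and 0.481 CPM in aged mice. Only aged mouse 4 fell within the young range, just under young mouse 4. The rise was 3.62-fold (log2 change 1.86, SE 0.42, edgeR adjusted p = 0.0191). Gdf5, the third gene of the subgroup, had 4, 5, 6, 6 and 9 reads in the young and 3, 12, 1, 4 and 4 reads in the aged libraries and was not tested. The call of Gdf6 was lost with the mean level of 30 skeletal muscle genes as a covariate (log2 change 1.83, edgeR adjusted p = 0.0601).

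The promoter of Gdf7, the ligand gene whose mice separated fully, is shown with those of Bmpr1b and Fstl1, the receptor and modulator genes with the largest called changes, as the 250 bases before a RefSeq start, 5′ to 3′ on GRCm38.p6. Windows holding a base of an annotated exon were left out, among them that of the third Bmpr1b start. Fstl1 is the exception and is shown by its first 68 bases, up to the first exonic base. Id3 was not among the genes chosen for printing. Capitals mark GTCT or its reverse complement AGAC, the short SMAD-binding letters, and GGCGCC, a palindrome bound by BMP-responsive SMADs, would also be in capitals.
Gdf7, chr12:8301955-8302204, minus strand: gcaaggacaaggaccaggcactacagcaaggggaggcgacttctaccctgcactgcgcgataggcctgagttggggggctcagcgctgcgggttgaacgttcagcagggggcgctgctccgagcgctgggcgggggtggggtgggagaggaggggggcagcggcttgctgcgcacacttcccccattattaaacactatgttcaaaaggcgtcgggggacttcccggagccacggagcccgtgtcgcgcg
Bmpr1b, first of 3 starts, chr3:141982265-141982514, minus strand: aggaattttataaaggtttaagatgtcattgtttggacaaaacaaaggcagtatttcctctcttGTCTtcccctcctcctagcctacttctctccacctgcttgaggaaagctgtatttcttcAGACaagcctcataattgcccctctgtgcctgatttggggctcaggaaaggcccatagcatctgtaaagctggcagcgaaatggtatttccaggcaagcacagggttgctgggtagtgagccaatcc
Bmpr1b, second of 3 starts, chr3:141931589-141931838, minus strand: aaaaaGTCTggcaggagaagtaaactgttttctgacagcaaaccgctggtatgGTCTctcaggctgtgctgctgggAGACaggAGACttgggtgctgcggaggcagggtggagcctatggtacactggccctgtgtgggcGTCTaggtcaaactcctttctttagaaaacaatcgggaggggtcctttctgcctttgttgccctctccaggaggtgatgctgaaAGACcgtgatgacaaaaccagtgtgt
Fstl1, chr16:37776805-37776872, plus strand: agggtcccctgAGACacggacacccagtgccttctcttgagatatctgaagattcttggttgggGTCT

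The Gdf7 window held neither motif. The Bmpr1b windows shown held GTCT 2 and 6 times and the Fstl1 stretch 2 times, and none of these held GGCGCC. RefSeq windows were matched for 37 of the 53 members, 43 windows in all. Of these, 36 (83.7%) held GTCT on either strand, against 82.9% of all 32851 windows, and 9 (20.9%) held GGCGCC, against 9.59% of all windows. These are matches of letters over all 250 bases of each window, exonic bases included, and 24 of the 43 member windows held no exonic base. The base composition of members and all windows was not matched, so the shares do not measure enrichment. Neither motif overlaps the other. Gdf6, Acvrl1 and Id1 were among the members without a matched window.

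The other ligand genes did not pass the test. Bmp3, a BMP that opposes bone formation, had the highest level per length of the BMP and GDF ligand genes, with 52.5 ± 8.41 CPM in young and 60.0 ± 24.1 CPM in aged bone (SD, n = 5). Bmp2 and Bmp4, which encode bone-inducing ligands, differed by 0.12 (SE 0.12) and 0.06 (SE 0.13) on the log2 scale. Bmp6 ranged from 13.6 to 28.8 CPM in young and 19.3 to 34.2 CPM in aged bone, and Bmp7 from 5.62 to 8.56 and 5.54 to 8.50 CPM. Bmp5 had the lowest fitted change of the list, -0.56 (SE 0.21, edgeR adjusted p = 0.123), and 46.7% of its exon bases overlap a gene on the opposite strand, whose reads cannot be told apart from its own since the strand setting of the counting is unknown here. The log2 changes of Bmp8a and Gdf10 were 0.17 and -0.05.

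None of the 3 TGF-beta ligand genes was called. Tgfb2, the one with the smallest p, measured 28.8, 34.0, 29.1, 31.3 and 30.3 CPM in young mice 1 to 5 and 27.2, 28.8, 30.5, 14.7 and 33 CPM in aged mice 1 to 5. Aged mouse 4 stood below all others and the groups overlapped (log2 change -0.19, SE 0.17, edgeR adjusted p = 0.496). Aged mouse 4 was also the lowest for Tgfb3, at 15 CPM where the aged mean was 34.3 ± 11.5 and the young mean 31.3 ± 0.685 CPM (SD, n = 5). Tgfb1, the main isoform of bone matrix, averaged 151 ± 24.6 CPM in young and 153 ± 36.1 CPM in aged bone (SD, n = 5), with a log2 change of 0.03 (SE 0.16).

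The activin, inhibin and myostatin group also held 0 calls among 5 genes. Gdf11, a ligand close to myostatin that signals through activin receptors, had the smallest p. It measured 22.8, 19.3, 26.0, 17.1 and 24.3 CPM in young mice 1 to 5 and 26.7, 27.5, 30.6, 19.1 and 35.7 CPM in aged mice 1 to 5. All aged mice but number 4 lay above the highest young mouse, and aged mouse 4 lay within the young range (log2 change 0.35, SE 0.16, edgeR adjusted p = 0.182). Inhba and Inhbb, the activin subunit genes, differed by -0.01 (SE 0.12) and 0.10 (SE 0.14), and Inha, the inhibin subunit gene, by 0.32 (SE 0.21). Mstn, which encodes the muscle growth inhibitor myostatin, measured 4.45 to 7.56 CPM in young and 3.49 to 10.4 CPM in aged mice (log2 change 0.38, SE 0.26).

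Of the 7 type I receptor genes, 2 were higher and 0 lower. Bmpr1b (ENSMUSG00000052430.15, chr3:141837136-142169425, minus strand) encodes a BMP and GDF receptor used by the GDF5 subgroup in cartilage. It measured 0.795, 0.932, 0.832, 0.438 and 1.16 CPM in young mice 1 to 5 and 2.88, 1.07, 4.29, 1.29 and 2.71 CPM in aged mice 1 to 5. Aged mouse 2 lay within the young range, and aged mice 1, 3 and 5 were well above it. The rise was 2.91-fold (log2 change 1.54, SE 0.37, edgeR adjusted p = 0.0273). The call was lost without any one of young mice 1 to 4 or aged mice 1, 3 or 5 and with limma-voom, with adjusted p up to 0.0677 in these, and the log2 change was 0.84 with 30 muscle genes as a covariate (adjusted p = 0.115).

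Markers of skeletal muscle were present in every library, with 0 of 10 called and a summed level of 8513 to 26670 CPM in young and 12950 to 33960 CPM in aged mice, and aged mouse 3 was the highest both for these and for Bmpr1b. No muscle marker was at 0, and the part of muscle RNA in the changes of Bmpr1b and Gdf6 was not tested beyond the covariates given here. Since whole bone was measured, fewer cells of a type and less RNA per cell cannot be told apart.

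Bmpr1a, the other main BMP type I receptor gene, had 35.8 ± 5.77 CPM in young and 35.9 ± 9.76 CPM in aged bone (SD, n = 5), with a log2 change of 0.00 (SE 0.18). The ratio of Bmpr1b to Bmpr1a counts within a library had log2 values of -5.14, -5.39, -5.67, -6.20 and -4.89 in young mice 1 to 5 and -4.09, -4.92, -3.04, -4.12 and -3.85 in aged mice 1 to 5. Only aged mouse 2 reached into the young range. The ratio was 2.74-fold higher in aged bone (log2 difference 1.45, two-sided exact permutation test, p = 0.0159, adjusted p = 0.0476 over 6 ratios). The 6 ratios were chosen with earlier results of these data known. This one rests on the same Bmpr1b counts as the edgeR call, so it is not separate evidence. The smallest p that 5 against 5 mice allow is 0.00794. Without any one young mouse, or without aged mouse 3, the adjusted p of the ratio of Bmpr1b to Bmpr1a was 0.0714.

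Acvrl1 (ENSMUSG00000000530.16, chr15:101128522-101145336, plus strand) encodes ALK1, a type I receptor for BMP9 and BMP10 found mainly on endothelium. It measured 21.7, 18.3, 23.3, 18.3 and 28.2 CPM in young mice 1 to 5 and 24.2, 35.9, 33.2, 36.9 and 28.3 CPM in aged mice 1 to 5. Aged mouse 1 lay within the young range, and aged mouse 5 was just above young mouse 5. The rise was 1.45-fold (log2 change 0.53, SE 0.15, edgeR adjusted p = 0.0430). Of the 20 alternatives 8 kept the call and 12 lost it, among them scaling by total counts alone (Acvrl1 log2 change 0.38, adjusted p = 0.209), either muscle covariate (adjusted p = 0.0549 and 0.0696) and leaving out any one of young mice 1 to 4 or aged mice 2 to 5. Of 7 endothelial markers, 1 (Emcn) was lower and 0 were higher, and their summed level was 373 to 600 CPM in young and 473 to 680 CPM in aged mice, highest in aged mouse 4 like Acvrl1. The part of endothelial RNA in the change of Acvrl1 was not tested.

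**Figure D3:**
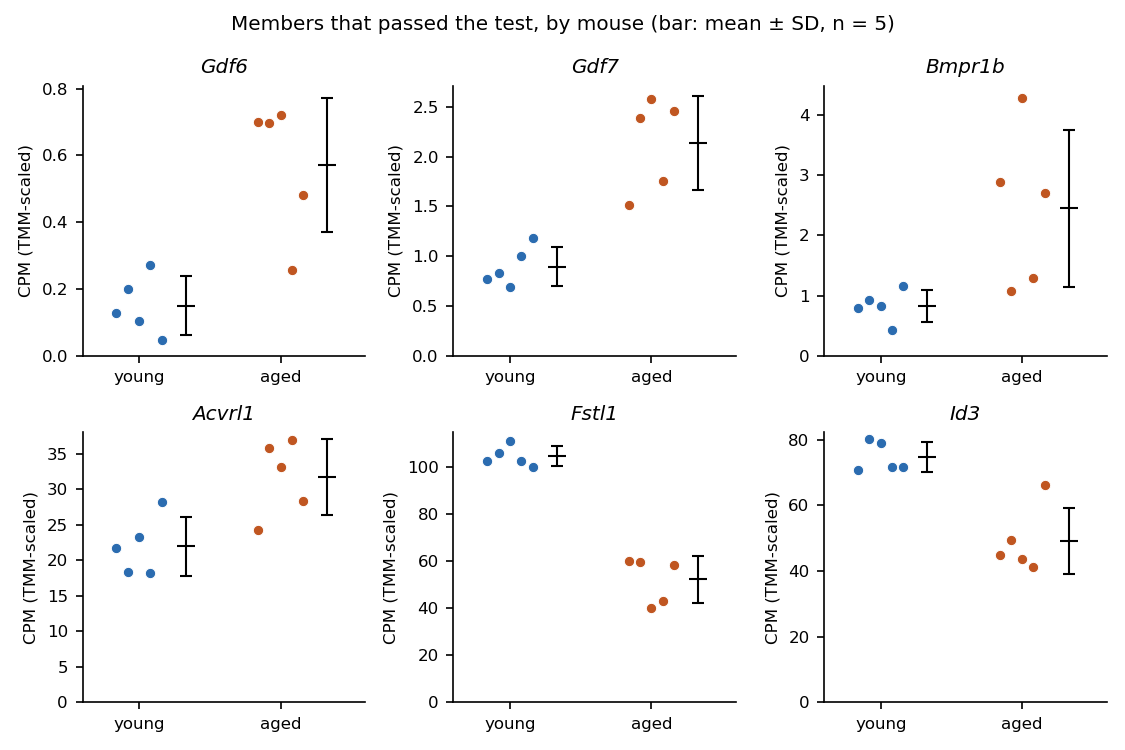
TMM-scaled CPM (vertical axis, from 0) of each young and aged mouse for the 6 members that passed the test, with the mean and SD of 5 mice at the side. Young and aged mice are fully separate for Gdf7, Fstl1 and Id3, while at least 1 aged mouse lies within the young range for Gdf6, Bmpr1b and Acvrl1.

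The other 4 type I receptor genes did not pass. Acvr1b, an activin receptor gene also known as ALK4, came closest, with a mean of 29.9 ± 4.56 CPM in young and 40.8 ± 6.95 CPM in aged bone (SD, n = 5; log2 change 0.45, SE 0.14, edgeR adjusted p = 0.0588). Tgfbr1, the TGF-beta type I receptor gene, ranged from 49.5 to 94.2 CPM in young and 39.2 to 72.6 CPM in aged mice (log2 change -0.37, SE 0.19). Acvr1, a BMP receptor gene mutated in a human disease of ectopic bone, differed by 0.01 (SE 0.13). Acvr1c, an activin-type receptor gene, changed by a fitted 1.71-fold with wide spread, 0.721 to 4.75 CPM in aged mice (edgeR adjusted p = 0.335).

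Of 4 type II receptor and 2 co-receptor genes, 0 were called. Tgfbr2, the TGF-beta type II receptor gene, measured 104, 102, 123, 118 and 105 CPM in young mice 1 to 5 and 82.8, 107, 66.8, 89.1 and 104 CPM in aged mice 1 to 5. Aged mice 1, 3 and 4 lay below every young mouse and aged mice 2 and 5 among them (log2 change -0.29, SE 0.13, edgeR adjusted p = 0.162). Eng, which encodes the endothelial co-receptor endoglin, measured 56.5, 46.6, 58.2, 50.9 and 62.5 CPM in young mice 1 to 5 and 47.4, 55.0, 44.6, 45.1 and 47.8 CPM in aged mice 1 to 5. The groups overlapped (log2 change -0.20, SE 0.10, edgeR adjusted p = 0.246), and the fitted change was opposite in sign to that of Acvrl1, with which endoglin acts; the difference between the 2 genes was not tested. Bmpr2, Acvr2a and Acvr2b, the type II receptor genes for BMPs and activins, had log2 changes of 0.05, 0.17 and 0.34, and Tgfbr3, which encodes the co-receptor betaglycan, of 0.12.

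None of the 8 SMAD genes was called, and Smad1, Smad2, Smad3 and Smad4 had fitted log2 changes between -0.07 and 0.11. Smad9, a BMP-activated SMAD and the least abundant of the 8 per length, measured 7.52, 7.93, 6.79, 6.85 and 6.93 CPM in young mice 1 to 5 and 4.98, 6.47, 5.92, 3.63 and 6.88 CPM in aged mice 1 to 5. Only aged mouse 5 lay within the young range (log2 change -0.37, SE 0.16, edgeR adjusted p = 0.167). Smad5, which also carries BMP signals, went from a mean of 66.4 ± 7.55 CPM to 57.3 ± 4.46 CPM (SD, n = 5; log2 change -0.21, SE 0.10, edgeR adjusted p = 0.201).

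Smad7, an inhibitory SMAD that blocks TGF-beta and BMP receptors, measured 46.5, 41.3, 53.5, 39.1 and 47.9 CPM in young mice 1 to 5 and 50.9, 50.1, 67.5, 54.8 and 60.3 CPM in aged mice 1 to 5. Aged mice 3, 4 and 5 lay above every young mouse (log2 change 0.31, SE 0.11, edgeR adjusted p = 0.108). Smad6, the inhibitory SMAD that acts mainly on BMP receptors, differed by -0.06 (SE 0.16). Within a library the log2 ratio of Smad6 to Smad7 counts was -0.52, -0.65, -0.44, -0.63 and -0.53 in young mice 1 to 5 and -0.95, -0.83, -0.98, -1.26 and -0.63 in aged mice 1 to 5. Aged mouse 5 lay in the young range, and the other 4 aged mice below it. The ratio fell by 0.38 on the log2 scale (two-sided exact permutation test, p = 0.0159, adjusted p = 0.0476 over 6 ratios), and for the ratio of Smad6 to Smad7 the adjusted p was also 0.0714 without any one young mouse or aged mouse 3. The other 4 ratios, Tgfb2 to Tgfb1, Tgfb3 to Tgfb1, Inhbb to Inhba and Fst to Inhba, had adjusted p from 0.349 to 0.984 by the same exact test.

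**Figure D4:**
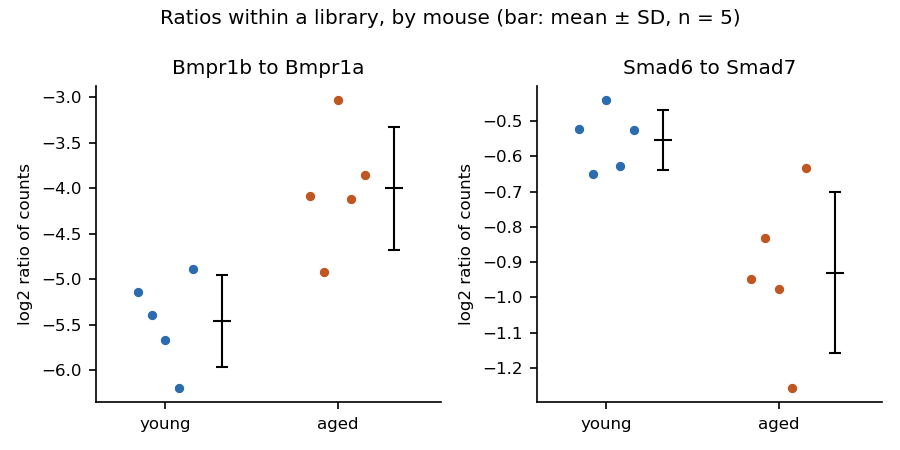
Log2 ratio of counts within each library for Bmpr1b to Bmpr1a and for Smad6 to Smad7, by mouse, with mean and SD of 5 mice. The first ratio averages -5.46 in young and -4.00 in aged mice and the second -0.55 and -0.93, and in each 1 aged mouse lies in the young range.

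Of the 9 antagonists and modulators, 1 was lower and 0 higher. Fstl1 (ENSMUSG00000022816.11, chr16:37776873-37836514, plus strand), a follistatin-like glycoprotein secreted by mesenchymal cells and reported to bind BMPs, was the most abundant of them per length at both ages. It measured 102, 106, 111, 102 and 100 CPM in young mice 1 to 5 and 59.9, 59.7, 40.1, 42.8 and 58.1 CPM in aged mice 1 to 5. No aged mouse reached the young range, and aged mice 3 and 4 were the lowest. The mean was 104 ± 4.23 CPM in young and 52.1 ± 9.82 CPM in aged bone (SD, n = 5), 2.00-fold lower in aged bone (log2 change -1.0, SE 0.12, edgeR adjusted p = 5.44e-04). It had the smallest p of all members.

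Bambi, which encodes a decoy receptor without a kinase, did not pass the test and is named because its groups did not overlap, a choice made after its values were seen. It measured 29.1, 34.7, 26.8, 25.7 and 27.0 CPM in young mice 1 to 5 and 15.8, 21.8, 10.1, 8.30 and 21.8 CPM in aged mice 1 to 5. As for Fstl1, the lowest aged mice were 3 and 4. The fitted log2 change was -0.88 (SE 0.25, edgeR adjusted p = 0.0520), and 8 of 20 alternatives put it at or under 0.05, with adjusted p from 0.00710 to 0.131 over the 20. DESeq2, the method the paper used, was among the 8, and the paper lists Bambi as lower. Of the members called here, the paper also lists Gdf6, Gdf7 and Bmpr1b as higher and Fstl1 and Id3 as lower.

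The classic extracellular BMP antagonists did not pass the test. Nog, the noggin gene, had 1.97 ± 0.352 CPM in young and 2.77 ± 0.917 CPM in aged bone (SD, n = 5; log2 change 0.48, SE 0.24, edgeR adjusted p = 0.234). Grem1, the gremlin gene, had a fitted log2 change of -0.43 (SE 0.15, edgeR adjusted p = 0.0996). Chrd, Chrdl1 and Bmper, genes of chordin and chordin-like proteins that trap BMPs, differed by 0.01, -0.21 and 0.02 on the log2 scale. Fst and Fstl3, whose products bind activin and myostatin, had fitted changes of 0.36 (SE 0.17) and 0.43 (SE 0.27), and 47.3% of the exon bases of Fstl3 overlap Prss57 on the opposite strand.

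Of 4 target genes, 1 was lower and 0 higher. Id3 (ENSMUSG00000007872.3, chr4:136143497-136145755, plus strand), which encodes an inhibitor of basic helix-loop-helix factors switched on by BMP, measured 70.7, 80.1, 79.1, 71.8 and 71.7 CPM in young mice 1 to 5 and 44.7, 49.4, 43.8, 41.2 and 66.3 CPM in aged mice 1 to 5. All aged mice lay below all young mice, with aged mouse 5 close to the young range. The mean went from 74.7 ± 4.52 to 49.1 ± 10.1 CPM (SD, n = 5), 1.52-fold lower in aged bone (log2 change -0.61, SE 0.12, edgeR adjusted p = 0.0117). Its relatives Id1 and Id2, also BMP targets, did not pass, with log2 changes of 0.08 (SE 0.10) and -0.23 (SE 0.18). Tgfbi, a TGF-beta-induced matrix protein gene, had 50.1 ± 4.68 CPM in young and 62.6 ± 15.1 CPM in aged bone (SD, n = 5; log2 change 0.32, SE 0.14, edgeR adjusted p = 0.180), and with either muscle covariate it passed as higher, with a log2 change of 0.53 with the 30 genes (adjusted p = 0.0132).

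Markers of osteoblasts, cartilage and tendon are given beside these genes, and their association with the members was not tested. Of 8 osteoblast markers, 4 were lower (Bglap, Col1a1, Alpl and Smpd3) and 0 higher, and the list took 4.45% ± 0.955 of counts in young and 1.73% ± 0.604 in aged libraries (SD, n = 5; two-sided exact permutation test, p = 0.00794, adjusted p = 0.0873 over 11 marker lists). That p is the smallest that 5 against 5 mice allow, so 1 list alone could not pass after adjustment over 11 lists. As shares the groups did not overlap. As summed TMM-scaled CPM they ranged from 28580 to 61350 in young and 12890 to 30380 in aged mice, with aged mouse 5 above young mouse 5. Of 9 chondrocyte markers 7 were tested and 5 were lower, with a summed level of 177 to 1063 CPM in young and 203 to 556 CPM in aged mice. Of 6 tendon and ligament markers 1 (Kera) was lower, with 356 to 496 CPM in young and 111 to 500 CPM in aged mice. As shares of counts, the chondrocyte list and the tendon and ligament list each had an adjusted p of 0.466 by the same exact test. No osteoblast marker was near 0, the lowest being Smpd3 at a mean of 62.3 CPM, and the part of fewer osteoblasts or cartilage cells in the changes of Fstl1 and Id3 was not tested.

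Beyond the members, 90 further genes of the pathway were in the table, and 78 were tested. Of these, 2 rose, 10 fell and 66 were not called, and the median log2 change was -0.06. The share called was 15.4%, against 7.29% of all genes tested, with 3.68% higher and 3.61% lower. These lists were chosen with earlier results of these data known. Scaling by total counts alone moved the median of all genes tested to -0.16, and 1 further pathway gene was then higher and 12 lower.

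Among further ligands, Gdf15, which encodes a stress-induced circulating factor of the family, was the 1 called of 8 tested. It measured 0.487, 0.378, 0.520, 0.585 and 0.991 CPM in young mice 1 to 5 and 1.31, 3.0, 1.82, 3.26 and 1.16 CPM in aged mice 1 to 5. The groups did not overlap, and the rise was 3.56-fold (log2 change 1.83, SE 0.34, edgeR adjusted p = 0.00679). Among 6 further receptors and co-receptors, Neo1, the gene of the co-receptor neogenin, was lower (log2 change -0.50, SE 0.14, edgeR adjusted p = 0.0424), with the call lost without any one mouse other than aged mouse 5.

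A list of 16 genes linked to the storage or activation of latent TGF-beta held 4 lower (25.0%) and 0 higher. Over all genes tested, 3.61% were lower. Fbn2, the gene of fibrillin-2, a microfibril protein that binds latent complexes, went from 25.3 to 40.8 CPM in young mice to 5.31 to 11.2 CPM in aged mice, 3.79-fold lower (log2 change -1.92, SE 0.22, edgeR adjusted p = 4.43e-04). Fbn1, its relative, ranged from 100 to 136 and from 55.1 to 96.0 CPM (log2 change -0.66, SE 0.14, edgeR adjusted p = 0.0141), and 20.1% of its exon bases overlap another gene. Ltbp2, a gene of the latent TGF-beta binding protein family, ranged from 65.7 to 77.4 and from 45.7 to 59.2 CPM (log2 change -0.47, SE 0.10, edgeR adjusted p = 0.0120). Tll1, a gene of a protease that cleaves chordin, was the fourth (log2 change -0.86, SE 0.24, edgeR adjusted p = 0.0482), and its call was lost without any one mouse other than aged mouse 5. All 4 had every aged mouse below every young mouse, where 7.8% of all genes tested did not overlap in either direction. Ltbp1, Ltbp3 and Ltbp4 did not pass, with log2 changes of 0.09, -0.24 and 0.34.

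Among 11 further extracellular modulators, Crim1, whose product tethers BMPs at the cell surface, was higher (log2 change 0.63, SE 0.17, edgeR adjusted p = 0.0360; 0.36 and adjusted p = 0.122 with 30 muscle genes as a covariate). The call of Crim1 was also lost when libraries were scaled by total counts alone, and without any one of young mice 1, 2 and 4 or aged mice 1, 3 and 5. Htra1, a secreted protease gene reported to restrain TGF-beta family signals, was lower. Its range was 50.0 to 65.8 CPM in young and 10.1 to 28.8 CPM in aged mice (2.74-fold lower, log2 change -1.45, SE 0.22, edgeR adjusted p = 0.00350). The 19 intracellular regulators, such as the ubiquitin ligase genes Smurf1 and Smurf2 and the repressor genes Ski and Skil, held 0 calls by edgeR and 4 with an unadjusted p under 0.05.

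Of 12 further TGF-beta target genes, 3 were lower (25.0%, against 3.61% of all genes tested) and 0 higher. Of the 12, 10 were below 0, with a median log2 change of -0.59. Postn, which encodes the matrix protein periostin of periosteum and ligament, measured 539, 607, 541, 559 and 391 CPM in young mice 1 to 5 and 153, 150, 72.2, 47.4 and 134 CPM in aged mice 1 to 5. The groups were far apart, 4.74-fold (log2 change -2.24, SE 0.30, edgeR adjusted p = 0.00186). Fn1, the fibronectin gene, had a log2 change of -0.85 (SE 0.20, edgeR adjusted p = 0.0230). The call of Fn1 was lost without young mouse 1, 2 or 4 or aged mouse 3, and with the 30 muscle genes as a covariate (adjusted p = 0.0623 for the Fn1 log2 change). Of 6 further BMP target genes tested, Hey1, a transcriptional repressor gene, was lower (log2 change -0.69, SE 0.16, edgeR adjusted p = 0.0237; 0.0615 without young mouse 2). Many of these target and matrix genes are also expressed by osteoblasts, of whose 8 markers 4 were lower, and the part of those cells was not tested.

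**Figure D5:**
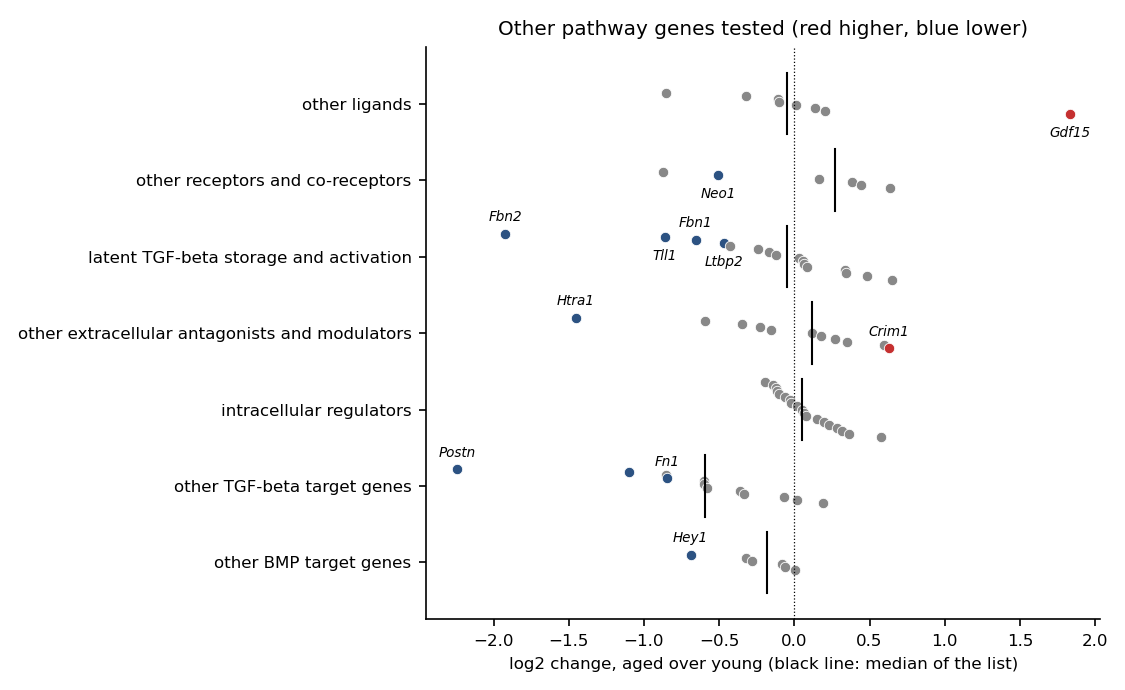
Log2 change from young to aged bone (horizontal axis) of the 78 further pathway genes tested, by list, with the median of each list as a black line. Gdf15 and Crim1 (red) lie to the right, the 10 genes called lower (blue) to the left, and the further TGF-beta target genes have the lowest median, -0.59.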

How the data were processed

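Femur RNA of 10 mice was sequenced, 5 young and 5 aged. The authors trimmed reads with cutadapt, aligned them with STAR to mouse GRCm38.p6 and summed them with featureCounts, and the deposited table holds raw counts per gene; their annotation release and strand setting were not given in the sources used here. Labels name hg38 although identifiers are mouse. All 10 columns were mapped by their labels. Between mice of a group the lowest chi-square per degree of freedom was 38.2, above sampling noise. That the mice are independent animals rests on the study's description.

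The tests used edgeR 4.0.16 under R 4.3.3 (filterByExpr, minimum count 10, minimum total 15, TMM scaling, robust quasi-likelihood test, Benjamini-Hochberg over 22088 genes). Called means an adjusted p no larger than 0.05, and the SE is the log2 change over the root of F. Median SE was 0.178. Ratios used counts plus 0.5 and exact permutation. DESeq2 1.42.0, limma-voom 3.58.1, other scalings and filters, a muscle covariate (10 markers), a replicate block and leaving out each library were tried. Steps were tested on simulated data. Tables used Python 3.11.15.

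Members, lists and ratios were chosen with earlier results of these data known. Per-mouse values are given for each called member and, in role lists without one, for the member with the smallest p; of other pathway genes, up to 3 called per list get values, and Tll1 was added as the fourth of its list after its values were seen. Gdf1 and Gdf2 were not analysed here, and 1 called gene of the other pathway genes is counted but not reported here. The covariate of 30 muscle genes and scaling without the most abundant gene were added after the data were seen. The marker lists of megakaryocytes, macrophages, neutrophils, red cell precursors and adipocytes held 0 calls, and that of osteocytes 1 higher (Fgf23).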

Additional observations from a re-analysis of the deposited data

Results flagged for a closer look

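Each member's CPM was searched within each group of 5 mice for 1 mouse far from the other 4, and 7 of 104 groups held one (6.73%), where chance gives about 1 in 20. Bmp5 was low in young mouse 5, at 3.35 CPM against 5.74 to 6.64 in the other 4. Bmp6 was high in aged mouse 3, at 34.2 CPM against 19.3 to 22.5. Acvr1c was high in young mouse 2, at 1.94 CPM against 0.763 to 1.01, and in aged mouse 1, at 4.75 CPM against 0.721 to 1.67. Tgfbr3 was high in young mouse 5, at 90.5 CPM against 67.7 to 73.2. Smad1 was low in aged mouse 2, at 21.4 CPM against 26.5 to 28.4. Bmper was high in young mouse 4, at 4.80 CPM against 3.92 to 3.99. None of these genes was called by edgeR's test with all mice; without young mouse 5 Bmp5 was called lower.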

How the results depend on the processing

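Gdf7, Fstl1 and Id3 were called in all 20 alternatives across all genes, and Gdf6 in 18 of the 19 that could test it, the filter of at least 1 CPM leaving it out. Bmpr1b was called in 11 of 20 and Acvrl1 in 8 of 20; none of the 6 changed sign. Leaving out 1 mouse gave 2 to 5 members higher and 2 to 4 lower, 300 to 856 genes higher and 386 to 830 lower over the whole table, and 1 to 3 further pathway genes higher and 5 to 10 lower. It moved the log2 difference in the ratio of Bmpr1b to Bmpr1a between 1.21 and 1.68 and in the ratio of Smad6 to Smad7 between -0.45 and -0.29, and both calls were lost (exact permutation, adjusted p = 0.0714) without any one young mouse or aged mouse 3. Scaling by total counts alone called 285 genes higher and 1 further pathway gene higher, and DESeq2 called 1545 genes higher and 1283 lower. With 30 muscle genes as a covariate, 2 members and 1 further pathway gene were higher. The cause of these shifts was not tested.

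Same-numbered mice did not deviate together (correlations -0.15 to 0.17, none highest with its own number), so the numbers do not pair mice. With the replicate block 7 members were called, 5 of them shared, with Acvrl1 lost and Acvr1b and Bambi added. In the block the ratio differences stayed 1.45 and -0.38, with an exact sign-flip adjusted p of 0.188, where 5 pairs allow no p under 0.0625.

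Gdf6 rests on the fewest reads of the called members, 2 to 35 per library, and the median SE over all genes tested was 0.178 on the log2 scale.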
